A study of Mus musculus with 16 samples.

Results

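Cyclin-dependent kinase (CDK) inhibitors and p53 pathway genes were followed in RNA sequencing of blood-forming and leukemic cells of mice. The members were taken by name from the gene table, 8 genes in all: the inhibitors Cdkn1a, Cdkn1b, Cdkn1c, Cdkn2c and Cdkn2d, together with Trp53 and its target genes Mdm2 and Ccng1. They are 8 of 26595 features in the CD93 experiment and 8 of 36930 in the drug experiment, and each was found by its symbol in both.

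CDK inhibitors bind cyclin-CDK complexes and hold cells before DNA replication. The Cip/Kip inhibitors p21 (Cdkn1a), p27 (Cdkn1b) and p57 (Cdkn1c) act on several CDKs, whereas the INK4 inhibitors (Cdkn2c, Cdkn2d) bind Cdk4 and Cdk6. The transcription factor p53 (Trp53) switches on Cdkn1a, Ccng1 and Mdm2, and Mdm2 in turn marks p53 for degradation. In bone marrow, p21, p27 and p57 are known for keeping hematopoietic stem cells (HSCs) out of cycle.

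The study asked how CD93, a surface receptor, and the drug metoclopramide (MCP) bear on leukemia stem cells of chronic myeloid leukemia (CML). In the CD93 experiment, KO LSC (3 libraries) and WT LSC (3 libraries) were leukemia stem cells from CML mice, and KO LSK (2 libraries) and WT LSK (2 libraries) were naive bone marrow cells sorted as LSK, that is without lineage markers and with Sca-1 and c-Kit on their surface. KO stands for CD93-/- and WT for BL/6, all on the C57BL/6 background, at 8 weeks of age. CML was made by passing LSK cells of either genotype through 2 rounds of transduction with BCR-ABL1-GFP, the fusion oncogene of CML joined to a fluorescent reporter, and injecting them into BL/6 hosts that were not irradiated, so KO CML hosts kept their own CD93-proficient blood cells. In the drug experiment, MCP LSC (3 libraries) came from BL/6 CML mice given MCP at 10 mg/kg and Veh LSC (3 libraries) from BL/6 CML mice given vehicle. The labels do not say whether replicates were separate animals or pools, so p-values may measure technical spread. In these bulk libraries, fewer cells of a type and less RNA per cell cannot be told apart.

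The libraries differed widely in how many features carried signal. Values are RPKM, reads scaled to gene length and library depth, and the lowest value in a table, 0.003 for the CD93 table and 0.001 for the drug table, stands for no signal. KO LSC libraries held 1230 to 2967 features above the lowest value, WT LSC libraries 5525 to 7956, LSK libraries 14279 to 14906, MCP LSC libraries 15587 to 16447 and Veh LSC libraries 19554 to 20014. Cd93 itself was at the lowest value in the libraries labelled KO LSC 1 and 3 and at 44.3 RPKM in the library labelled KO LSC 2, against the lowest value in WT LSC 1 and 2 and 5.74 RPKM in WT LSC 3. It read 1.01 and 2.10 RPKM in KO LSK cells, against 5.34 and 22.9 RPKM in WT LSK cells. The library labelled KO LSC 2 therefore goes against its label, and its part in the results is given below. Kit, which encodes the sorting marker c-Kit, had no signal in KO LSC 1, 2 or 3 and lay between 0.221 and 16.8 RPKM in WT LSC libraries, against 14.2 to 99.3 RPKM in LSK libraries. Ly6a, which encodes Sca-1, reached at most 1.83 RPKM in KO LSC and 5.41 RPKM in WT LSC libraries, against 529 to 790 RPKM in LSK libraries. Summed neutrophil markers were 31522 to 55005 RPKM in KO LSC, 63611 to 109520 RPKM in WT LSC and 2087 to 5675 RPKM in LSK libraries. The single markers were split. Of 10 tested, 7 had a difference above 0 and 3 below in WT LSC against WT LSK, and 5 above and 4 below in KO LSC against KO LSK. The LSC libraries of the CD93 experiment thus read low for both markers of their gate. In the drug experiment Kit stood at 62.4 to 74.3 RPKM in MCP LSC and 68.4 to 77.5 RPKM in Veh LSC libraries, and Ly6a at 8.43 to 23.3 RPKM in MCP LSC and 14.6 to 23.9 RPKM in Veh LSC libraries.

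In GRCm38, by GENCODE M21, Cdkn1a lies at chr17:29090976-29100727, Cdkn1b at chr6:134920401-134925513 and Trp53 at chr11:69580359-69591873, all on the plus strand. On the minus strand lie Cdkn1c at chr7:143458339-143461050, Cdkn2c at chr4:109660876-109667189, Cdkn2d at chr9:21288410-21291407, Mdm2 at chr10:117688875-117710758 and Ccng1 at chr11:40748552-40755311. Of the 8 genes, 7 had a RefSeq promoter window in GRCm38.p6, from 250 bases before to 50 bases after the start, 9 windows in all. They were searched on both strands for the p53 binding site, the paired p53 decamer of 20 bases without spacer and with at most 1 mismatch, which 29 of 32851 promoter windows (0.0883%) held. It was found for 2 of the 8 genes, at the upstream start of Cdkn1a and at the start of Ccng1, and the first 240 bases of the Cdkn1a window and the first 200 of the Ccng1 window, which end before the start sites, are shown with the match in capitals. The downstream start of Cdkn1a, 2790 bases away, held no such match, and the first 240 bases of its window are shown for contrast, with its 2 copies of the GC box GGGCGG in capitals; 35.7% of all windows hold at least 1 GGGCGG on either strand. A match is a run of letters, not a measured site.
Cdkn1a upstream start, plus strand, chr17:29090729-29090968: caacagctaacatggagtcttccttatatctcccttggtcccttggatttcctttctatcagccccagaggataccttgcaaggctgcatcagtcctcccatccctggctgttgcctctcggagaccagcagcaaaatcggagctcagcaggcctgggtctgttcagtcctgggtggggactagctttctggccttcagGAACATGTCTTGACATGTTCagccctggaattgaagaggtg
Ccng1 start, minus strand, chr11:40755337-40755536: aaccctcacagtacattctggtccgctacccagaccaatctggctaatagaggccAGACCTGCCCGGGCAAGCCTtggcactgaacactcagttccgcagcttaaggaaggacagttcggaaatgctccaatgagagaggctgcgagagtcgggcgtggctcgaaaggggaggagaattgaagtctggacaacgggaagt
Cdkn1a downstream start, plus strand, chr17:29093519-29093758: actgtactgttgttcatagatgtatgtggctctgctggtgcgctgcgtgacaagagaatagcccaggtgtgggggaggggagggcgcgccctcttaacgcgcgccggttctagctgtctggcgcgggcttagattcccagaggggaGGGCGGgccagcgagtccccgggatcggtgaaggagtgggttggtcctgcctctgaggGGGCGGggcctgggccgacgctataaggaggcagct
The Cdkn1a match ran from base -51 to base -32 before its start, and the Ccng1 match from base -195 to base -176. GTAAACA, a core motif of forkhead factors, occurred 1 time in these 9 windows, in that of Mdm2, and in 3.65% of all windows. Of 42 further p53 target genes, 33 had a window and 1, Rps27l, held the paired decamer.

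In naive LSK cells all 8 genes had signal in all 4 libraries. Trp53 was the highest of them per length, at 253 and 234 RPKM in KO LSK and 238 and 238 RPKM in WT LSK libraries. Cdkn2d followed with 121 and 105 RPKM in KO LSK, against 92.8 and 107.5 RPKM in WT LSK. In WT LSK cells Cdkn1a, Mdm2, Ccng1, Cdkn1b and Cdkn2c came next, each overlapping its neighbour in that order, and Cdkn1c was lowest. In KO LSK cells Cdkn1a stood alone next after Cdkn2d, above Cdkn1b, Cdkn2c, Cdkn1c, Mdm2 and Ccng1.

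Loss of CD93 in naive LSK cells went with higher values of the Cip/Kip inhibitors as deposited, none of which passed the test. Cdkn1a read 92.6 and 89.2 RPKM in KO LSK, against 37.3 and 38.5 RPKM in WT LSK. The groups were far apart and each was tight, and the KO LSK mean was 2.40 times the WT LSK mean. The fit across all features gave a log2 difference of 1.24 ± 1.11 (SE) with an adjusted p of 1, from a spread shared by all 10 libraries. Without WT LSC 1, the 1 LSC library with Cdkn1a signal, the SE was 0.27 and the adjusted p 0.105. Fitted on the 4 LSK libraries alone, the SE was 0.32 and the adjusted p 0.732. Cdkn1c read 22.1 and 6.70 RPKM in KO LSK, against 2.63 and 2.84 RPKM in WT LSK. Both KO LSK values lay above both WT LSK values, but KO LSK 1 was far above KO LSK 2; the log2 difference was 1.84 ± 0.44 with an adjusted p of 0.121 in limma. It passed when either KO LSK library was left out, at 1.04 (adjusted p = 0.00244) without KO LSK 1 and at 2.63 (adjusted p = 0.000159) without KO LSK 2, fits in which the lone KO LSK library is assumed to vary like the other groups. On the 4 LSK libraries alone its adjusted p was 0.805. Cdkn1b read 26.9 and 24.5 RPKM in KO LSK, against 23.8 and 14.8 RPKM in WT LSK, which did not overlap either as deposited. The median ratio factors were 0.939 and 1.18 for KO LSK 1 and 2, against 0.979 and 0.632 for WT LSK 1 and 2. Divided by these factors, the Cdkn1b values of the groups overlap.

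The INK4 genes and Trp53 lay closer together in KO LSK and WT LSK than Cdkn1a and Cdkn1c, whereas Mdm2 and Ccng1 read lower in KO LSK without passing the test. Cdkn2c read 21.03 and 20.02 RPKM in KO LSK, against 17.7 and 16.8 RPKM in WT LSK. Its groups did not overlap, and its log2 difference of 0.24 ± 0.24 turned to -0.16 under median ratio scaling. Cdkn2d and Trp53 overlapped between the groups, with log2 differences of 0.17 ± 0.37 and 0.03 ± 1.62. Mdm2 read 20.3 and 7.28 RPKM in KO LSK, against 21.7 and 42.8 RPKM in WT LSK. Ccng1 read 8.96 and 15.8 RPKM in KO LSK, against 17.5 and 42.7 RPKM in WT LSK. Of these 2 p53 targets the KO LSK values lay below the WT LSK values, with log2 differences of -1.24 ± 1.06 and -1.13 ± 2.11 and adjusted p-values of 1. In all, limma called 0 of the 8 genes, against 1.83% of all 13485 tested features, and 1 of 8 (Cdkn1c) had an unadjusted p under 0.05. Of those 13485 features 1173 had an unadjusted p under 0.05. As deposited, the groups did not overlap for 6 of 8 genes, 4 higher and 2 lower in KO LSK. The shares of tested features were 34.6% in either direction, 14% higher and 20.5% lower. The median log2 difference was 0.21 over the 8 genes and -0.11 over all tested features.

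**Figure D1:**
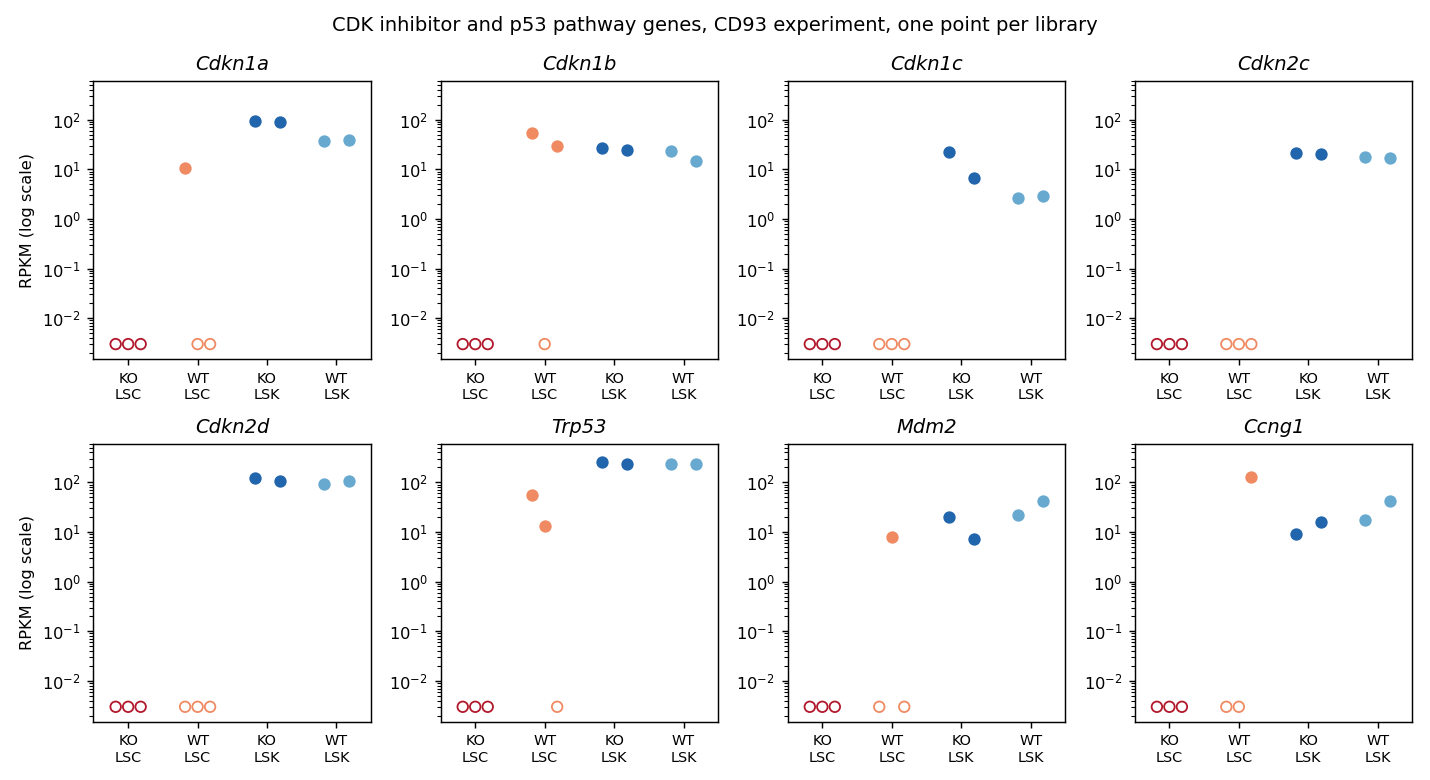
RPKM on a log axis of the 8 genes in each library of the CD93 experiment, by group; open circles mark the lowest value of 0.003. All 3 KO LSC libraries are at the lowest value for every gene, WT LSC libraries split between the lowest value and 7.95 to 127 RPKM, and the 4 LSK libraries have signal throughout.

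The wider p53 and cell cycle lists gave few calls in naive cells. Of 39 tested p53 target genes, 0 rose and 1 fell in KO LSK: Apaf1, the scaffold of the apoptosome, with 0.659 and 0.492 RPKM in KO LSK, against 2.07 and 2.88 RPKM in WT LSK (log2 difference -1.13 ± 0.18, adjusted p = 0.0232 in limma). Its call was lost in 6 of the other fits and without KO LSC 1, 2 or 3 or WT LSC 2 or 3, with an adjusted p of up to 0.0892 in those 5 fits that left out a library. On the LSK libraries alone the SE of Apaf1 was 0.59 and its adjusted p 0.830. No gene passed limma among 23 regulators of p53, 15 cyclins and CDKs or 16 RB and E2F genes, with 0, 0 and 0 at an unadjusted p under 0.05. None passed among 13 genes of p27 and p21 turnover (1 at an unadjusted p under 0.05) or 19 regulators of CDK inhibitor transcription (2). Of all 13485 tested features 1173 had an unadjusted p under 0.05. Summed neutrophil markers were 4463 and 2717 RPKM in KO LSK, against 5675 and 2087 RPKM in WT LSK, and summed LSK and HSC markers 1781 and 1475 RPKM in KO LSK, against 1840 and 2757 RPKM in WT LSK. Their part in the values of Cdkn1a and Cdkn1c was not tested.

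In leukemia stem cells of the CD93 experiment any signal of the 8 genes lay in WT LSC libraries, as for much of the transcriptome. Cdkn1c, Cdkn2c and Cdkn2d had no signal in the WT LSC libraries either. None of the 8 rose above the lowest value in any of the 3 KO LSC libraries, nor did 70.6% of the tested features, and the library labelled KO LSC 2 gave the same value as the others. WT LSC libraries 1, 2 and 3 had signal for 3, 2 and 2 of the 8 genes, against 57.1%, 49.2% and 40% of the tested features. Of the 24 WT LSC values 7 were above the lowest, between 7.95 and 127 RPKM. Nothing lay between the lowest value and 7.95 RPKM, so each gene read as either present or without signal in a given library.

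Among the inhibitors, p27 had the most WT LSC signal. Cdkn1b had no signal in KO LSC, and read 54.5 RPKM in WT LSC 1, the lowest value in WT LSC 2 and 29.6 RPKM in WT LSC 3. The groups overlapped through WT LSC 2, and the log2 difference was -3.57 ± 1.35 with an adjusted p of 0.211. Without WT LSC 2 it passed, at -5.36 (adjusted p = 0.000649). That pass follows from leaving out the only WT LSC library without Cdkn1b signal, and is no support for a difference. Cdkn1a had signal in WT LSC 1 alone, at 10.8 RPKM, and none in KO LSC (log2 difference -1.19 ± 0.90, adjusted p = 0.537). Outside the set, Cdkn2a, Cdkn2b and Cdkn3 summed to 470, 363 and 0.009 RPKM in KO LSC 1, 2 and 3. In WT LSC 1, 2 and 3 they summed to 143, 246 and 0.009 RPKM. Of these 3 genes 1 was tested, with a log2 difference of 0.76 that limma did not call. Cdkn1c, Cdkn2c and Cdkn2d had no signal in any of the 6 LSC libraries, like 29.3% of the tested features, so no difference was detectable.

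Trp53 showed the same broken pattern. It had no signal in KO LSC, and read 56.6 RPKM in WT LSC 1, 12.9 RPKM in WT LSC 2 and the lowest value in WT LSC 3. The log2 difference was -3.21 ± 1.32 with an adjusted p of 0.220, and without WT LSC 3 it was -4.82 (adjusted p = 0.00382). The latter fit left out the only WT LSC library without Trp53 signal, so its pass is no support either. Mdm2 had signal in WT LSC 2 alone, at 7.95 RPKM, and Ccng1 in WT LSC 3 alone, at 127 RPKM, with none of either in KO LSC. Each WT LSC library thus held a different set: Cdkn1a, Cdkn1b and Trp53 in the first, Trp53 and Mdm2 in the second, Cdkn1b and Ccng1 in the third. In limma 0 of 8 genes passed in KO LSC against WT LSC, against 8.81% of tested features, and 2 (Cdkn1b, Trp53) had an unadjusted p under 0.05. Of all 13485 tested features 2843 had an unadjusted p under 0.05. For 0 of 8 did the groups not overlap, against 14.6% of features. Without the library labelled KO LSC 2 the count stayed 0 of 8.

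**Figure D2:**
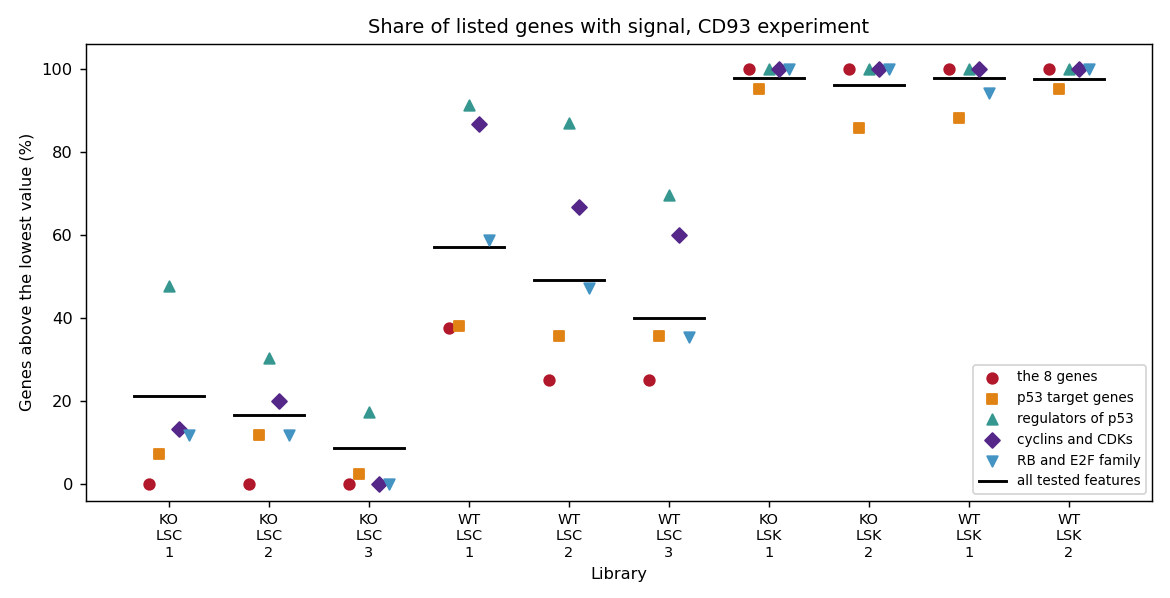
Percent of genes above the lowest value (y axis) in each library of the CD93 experiment (x axis), for the 8 genes, 4 wider lists and, as black bars, all tested features. The 8 genes stand at 0% in the KO LSC libraries and at 25% to 37.5% in the WT LSC libraries, below the bar of the same library, whereas regulators of p53 stand above it in all 6 LSC libraries.

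Of the 6 wider lists, 4 held genes that fell in KO LSC. Of 39 tested p53 target genes 4 fell in KO LSC and 0 rose, against 8.74% of tested features lower: Dcxr, a carbonyl reductase, Ckap2, a spindle protein, Btg2, an antiproliferative factor, and Pltp, a phospholipid transfer protein. Dcxr was at the lowest value in every KO LSC library, against 302, 253 and 651 RPKM in WT LSC 1, 2 and 3 (log2 difference -8.52 ± 0.69, adjusted p = 0.000498 in limma). Btg2 was at the lowest value in KO LSC too, against 231, 24.5 and 400 RPKM in WT LSC. The median over the 39 genes was 0, against -0.77 over all tested features, since many were without signal in both groups. Pltp, with 0.249 RPKM in KO LSC 3 and 2.40 to 46.3 RPKM in WT LSC, lost its call in 4 of the other fits and in 9 of the 10 that left out a library, each except that without WT LSC 1, with an adjusted p of up to 0.0975 in those 9.

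Of 23 regulators of p53, 6 fell in KO LSC and 0 rose. The 4 with the smallest p were Mdm4, an inhibitor of p53 related to Mdm2, Ppm1d, a phosphatase that silences p53, Usp7, which removes ubiquitin from Mdm2 and p53, and Trim24, a ubiquitin ligase of p53. Mdm4 had no signal in KO LSC, against 73.8, 73.3 and 19.7 RPKM in WT LSC libraries. Ppm1d, Usp7 and Trim24 were at the lowest value in KO LSC as well, against 6.01 to 15.9, 12.1 to 69.8 and 5.67 to 30.3 RPKM in WT LSC. Unlike Mdm2, these 4 regulators had signal in all 3 WT LSC libraries, which their choice by smallest p in this comparison favours. Of 15 cyclins and CDKs 5 fell and 0 rose, among them Ccne2 (cyclin E2), Mnat1 and Ccnh (partners in the CDK-activating kinase) and Cdk4, the target of the INK4 inhibitors; Cdk4 was at the lowest value in KO LSC, against 118, 129 and 31.8 RPKM in WT LSC. Of 16 RB and E2F genes 2 fell, Tfdp2, a partner of E2F factors, and Lin37, a subunit of the DREAM repressor. In p27 and p21 turnover (13 genes) and in the regulators of CDK inhibitor transcription (19 genes) limma called 0, with 2 and 4 at an unadjusted p under 0.05. Of all 13485 tested features 2843 had an unadjusted p under 0.05. Features without signal in KO LSC are the background to these counts: 70.6% of all tested features lacked signal in each of the 3 libraries, 1178 of 13485 features fell and 10 rose. Under quantile normalization, which moves the median of all features from -0.77 to 0.02, 745 fell and 562 rose.

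Set against naive LSK cells, WT LSC libraries had lower values of most of the 8 genes. In limma 6 of 8 fell in WT LSC and 0 rose, against 42.3% of tested features lower and 1.45% higher. Cdkn2d had no signal in WT LSC 1, 2 or 3, against 92.8 and 107.5 RPKM in WT LSK (log2 difference -6.65 ± 0.34, adjusted p = 4.52e-06). Cdkn2c had none either, against 17.7 and 16.8 RPKM in WT LSK (-4.18 ± 0.22, adjusted p = 4.52e-06). Trp53 read 56.6, 12.9 and 0.003 RPKM in WT LSC, against 238 RPKM in both WT LSK libraries (-4.68 ± 1.48, adjusted p = 0.0338). Cdkn1a (-4.09 ± 1.01), Mdm2 (-3.92 ± 0.96) and Cdkn1c (-1.90 ± 0.41) also passed, with adjusted p-values of 0.0116, 0.0114 and 0.00580. Cdkn1b and Ccng1 did not pass: WT LSC libraries with signal read above WT LSK for both, and those without signal read below.

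These leukemia calls leaned on the choice of fit. The INK4 genes Cdkn2c and Cdkn2d passed in each of the other fits and with each library left out. Trp53 missed the threshold in 4 of the other fits and 5 of the 10 that left out a library, with adjusted p up to 0.139; those libraries were WT LSC 2, KO LSK 1 and 2 and WT LSK 1 and 2. Cdkn1a missed it without WT LSK 1 or 2 (adjusted p = 0.0616 and 0.0690), and Mdm2 without WT LSK 2 (0.0937). Cdkn1a, Trp53 and Mdm2 did not pass when only WT LSC and WT LSK libraries were fitted (adjusted p = 0.0752, 0.126 and 0.0678). Quantile normalization moved the median of all features from -1.94 to 0.23, left Cdkn2c, Cdkn2d and Trp53 called and turned Cdkn1c to 0.23. Without the library labelled KO LSC 2 all 6 calls held. Without WT LSC 3, the library with the only LSC signal of Ccng1, that gene passed as well (-4.83, adjusted p = 0.000166).

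The same comparison in CD93-deficient cells gave 7 of 8 genes lower in KO LSC than in KO LSK, against 61.7% of tested features. All were at the lowest value in KO LSC, so that the values in KO LSK set each difference, from -3.73 ± 0.96 for Mdm2 to -7.93 ± 1.48 for Trp53. Ccng1 missed the threshold (-3.69 ± 1.93, adjusted p = 0.129), although its groups did not overlap. The groups did not overlap for 8 of 8 genes, all lower in KO LSC, against 75.2% of tested features. Without the library labelled KO LSC 2, Cdkn1b no longer passed (adjusted p = 0.0536) and 6 of 8 did. It missed the threshold without any other KO LSC or KO LSK library too (0.0519 to 0.116), Mdm2 did so without KO LSK 1 (0.0928), and Ccng1 passed without WT LSC 3 (0.000249). Under quantile normalization 4 of 8 passed: Cdkn1a, Cdkn2c, Cdkn2d and Trp53. The test of the difference between the genotype effects in LSC and in LSK called 0 of 8 genes in limma, against 6.08% of tested features, with 1 at an unadjusted p under 0.05: Cdkn1c (-1.84 ± 0.57, adjusted p = 0.141). Of all 13485 tested features 2053 had an unadjusted p under 0.05. Leaving out 1 library let Cdkn1b pass without WT LSC 2 (-5.80, adjusted p = 0.00653) and Trp53 without WT LSC 3 (-4.85, 0.0308). In each case the library left out was the only WT LSC library without signal of that gene, so the pass is no support. For Cdkn1c the difference was -1.04 without KO LSK 1 and -2.63 without KO LSK 2. Both fits assume that the lone KO LSK library varies like the other groups, so that Cdkn1c passed in them is no support either.

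**Figure D3:**
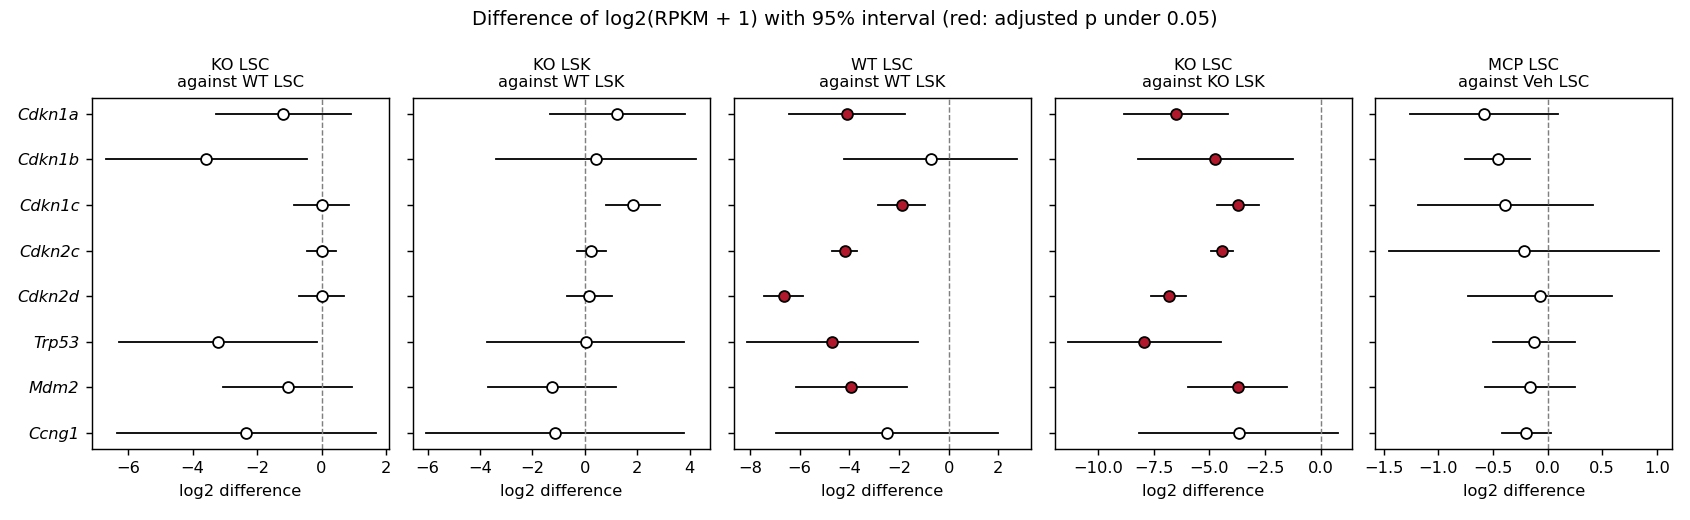
Difference of log2(RPKM + 1) of each of the 8 genes (rows) in 5 comparisons (panels), with 95% intervals from limma; filled points have an adjusted p under 0.05. Called genes appear in the 2 comparisons of LSC with LSK cells alone, 6 in WT and 7 in KO, and x axes differ between panels; under quantile normalization 3 and 4 of these remain, and Cdkn1c in WT turns sign.

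Many genes of the wider lists were lower in LSC than in LSK cells, as were 42.3% of all tested features in WT and 61.7% in KO. In WT LSC against WT LSK, 17 of 39 p53 target genes fell and 0 rose, among them Aen (an exonuclease), Ddit4 (an inhibitor of mTORC1), Psrc1 and Ei24, each without signal in WT LSC 1, 2 and 3, against 8.81 to 45.9 RPKM in WT LSK. Of 23 regulators of p53 only 3 fell: Rchy1, a ubiquitin ligase of p53, Cdkn2aip and Chek2, a DNA damage kinase. The list's median was -0.07, against -1.94 over all tested features. Chek2 lost its call under quantile normalization (adjusted p = 0.486 in limma) and with library weights (0.691), among other fits. It also missed the threshold without WT LSC 2 or 3 or KO LSK 1 or 2 (0.0736 to 0.107). Of 15 cyclins and CDKs 6 fell, among them Cdk2, Cdk4 and Ccnb1, and 1 rose: Ccne2, at 38.4, 45.4 and 59.7 RPKM in WT LSC, against 10.2 and 16.8 RPKM in WT LSK (1.77 ± 0.46, adjusted p = 0.0144). The Ccne2 call was lost under median ratio scaling (adjusted p = 0.153 in limma), with the replicate number as a block (0.0611) and with the compared groups only (0.0677). Cdk4 read 118, 129 and 31.8 RPKM in WT LSC, against 1043 and 1056 RPKM in WT LSK. Of 16 RB and E2F genes 9 fell (E2f1, E2f4, E2f5 and Rbl2 with the smallest p), of 13 turnover genes 6 (Cul4a, Skp2, Ddb1, Usp19) and of 19 regulators of CDK inhibitor transcription 7 (Bmi1, Foxo3, Stat5b, Klf6). Skp2, the ubiquitin ligase subunit that removes p27, was without signal in WT LSC, against 6.21 and 12.5 RPKM in WT LSK. Under quantile normalization E2f5 and Foxo3 turned sign. In KO LSC against KO LSK the counts lower were 27 of 39, 10 of 23, 12 of 15, 13 of 16, 9 of 13 and 12 of 19, with 0 higher in each list. The shares of p53 target genes and of regulators of CDK inhibitor transcription were near those of all features in both comparisons, and that of the regulators of p53 was lower. The 4 smallest p-values per list were those of Ddit4, Aen, Plk2 and Psrc1; Rchy1, Chek1, Cdkn2aip and Ppm1d; Cdk4, Ccnh, Mnat1 and Ccnd2; E2f1, E2f4, E2f5 and Tfdp2; Cul4a, Fbxo5, Ddb1 and Skp1a; Foxo3, Bmi1, Stat5b and Egr1, of which Ddit4, Aen, Plk2, Ppm1d, E2f5, Cul4a, Foxo3 and Bmi1 turned sign under quantile normalization.

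In the drug experiment all 8 genes had signal in all 6 libraries, among them the INK4 genes and Cdkn1c, which had none in the LSC libraries of the CD93 experiment. The tables were normalized separately, and levels are not compared between them by a test. In Veh LSC libraries Trp53 was highest at 102 ± 8 RPKM (SD, n = 3), followed by Ccng1 at 70.3 ± 4.9 RPKM, Cdkn1b at 40.9 ± 4.4 RPKM and Mdm2 at 36.7 ± 1.6 RPKM; Cdkn1b and Mdm2 overlapped. Cdkn1a averaged 14.1 ± 2.4 RPKM, Cdkn2d 4.81 ± 0.67, Cdkn2c 3.95 ± 1.40 and Cdkn1c 1.45 ± 0.75 RPKM in Veh LSC. Cdkn2d and Cdkn2c overlapped, and the others stood apart from their neighbours.

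Treatment with MCP moved none of the 8 genes past the threshold. Cdkn1b came nearest, with 25.8, 30.8 and 31.8 RPKM in MCP LSC, against 39.6, 37.2 and 45.8 RPKM in Veh LSC. All 3 MCP LSC values lay below all 3 Veh LSC values, with a log2 difference of -0.46 ± 0.13 and an adjusted p of 0.0995 in limma. The difference was -0.34 under quantile normalization and -0.28 under median ratio scaling, with adjusted p-values of 0.247 and 0.304. Cdkn1a read 14.3, 8.13 and 6.19 RPKM in MCP LSC, against 12.9, 12.5 and 16.9 RPKM in Veh LSC. The groups overlapped through MCP LSC 1, and the log2 difference was -0.58 ± 0.29 (adjusted p = 0.275). Cdkn1c, at 0.339 to 1.34 RPKM in MCP LSC and 0.926 to 2.32 RPKM in Veh LSC, was near the filter of 1 RPKM.

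The INK4 genes were low and uneven. Cdkn2c read 2.10, 8.66 and 1.38 RPKM in MCP LSC, against 2.62, 5.41 and 3.82 RPKM in Veh LSC. MCP LSC 2 was the highest of all and MCP LSC 3 the lowest, and the log2 difference of -0.22 ± 0.53 had a 95% interval from -1.45 to 1.02. Cdkn2d read 5.42, 5.84 and 2.79 RPKM in MCP LSC, against 4.37, 5.58 and 4.47 RPKM in Veh LSC, with a log2 difference of -0.07 ± 0.28. Of the INK4 locus that the set leaves out, Cdkn2a averaged 0.858 RPKM (SD 0.150, n = 3) in MCP LSC and 1.90 RPKM in Veh LSC, and its groups overlapped.

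For Trp53, Mdm2 and Ccng1 the fitted differences were small. Trp53 read 91.7, 74.6 and 117.1 RPKM in MCP LSC, against 94.8, 111.0 and 99.3 RPKM in Veh LSC, and the 95% interval of its log2 difference ran from -0.50 to 0.25. Mdm2 read 38.5, 37.0 and 24.4 RPKM in MCP LSC, against 37.5, 37.7 and 34.9 RPKM in Veh LSC, with an interval from -0.57 to 0.25. MCP LSC 3 was the low library there, and the other 2 lay within the Veh LSC range or above it by less than 1 RPKM. Ccng1 read 67.4, 58.2 and 58.3 RPKM in MCP LSC, against 75.5, 69.5 and 65.8 RPKM in Veh LSC. Its groups overlapped through MCP LSC 1 (log2 difference -0.20 ± 0.10, adjusted p = 0.275). In all, limma called 0 of 8 genes, against 2.32% of 14005 tested features, and 1 of 8 (Cdkn1b) had an unadjusted p under 0.05. Of those 14005 features 3226 had an unadjusted p under 0.05. Groups did not overlap for 1 of 8, against 30.5% of features, 25.6% in the lower direction. All 8 fitted differences were below 0 as deposited, as were those of 10057 of 14005 tested features. The median of the 8 was -0.21, against -0.18 over all tested features. Of the 8, however, 3 (Cdkn1c, Cdkn2c, Cdkn2d) were above 0 under quantile normalization and 3 (Cdkn2d, Trp53, Mdm2) under median ratio scaling.

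**Figure D4:**
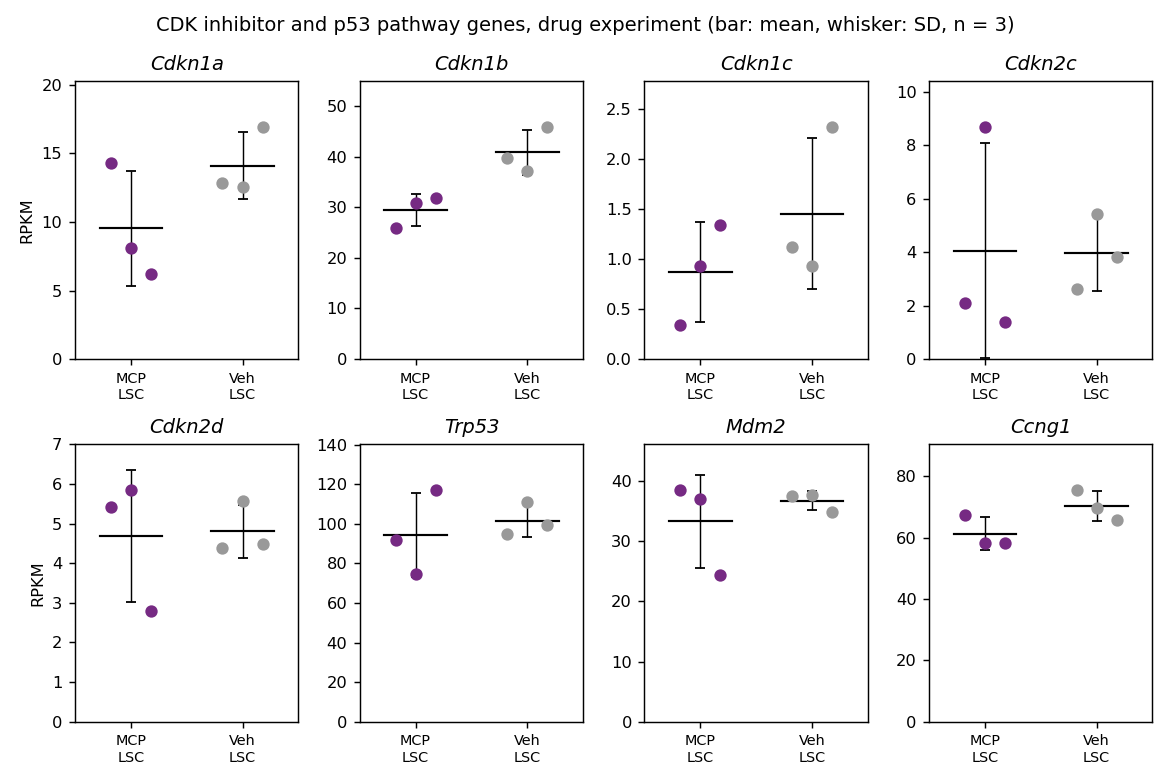
RPKM (linear axes that start at 0) of the 8 genes in the 3 MCP LSC and 3 Veh LSC libraries, with the mean (bar) and SD (whisker) of each group. Cdkn1b is the gene whose groups do not overlap, with 25.8 to 31.8 RPKM in MCP LSC and 37.2 to 45.8 RPKM in Veh LSC.

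Of 20 transcriptional regulators of the CDK inhibitors 4 fell in MCP LSC and 0 rose, against 1.8% of tested features lower. Klf4, a repressor of cell division that activates Cdkn1a, read 5.20, 6.22 and 3.73 RPKM in MCP LSC, against 15.2, 16.2 and 15.5 RPKM in Veh LSC (log2 difference -1.48 ± 0.20, adjusted p = 0.0222). Egr1, an immediate early factor, read 88.4, 80.6 and 87.8 RPKM in MCP LSC, against 147, 142 and 154 RPKM in Veh LSC (-0.78 ± 0.07, adjusted p = 0.00683). Klf6, another activator of Cdkn1a, read 84.9, 95.1 and 77.3 RPKM in MCP LSC, against 115, 131 and 129 RPKM in Veh LSC (-0.54 ± 0.10, adjusted p = 0.0440). Myc, a repressor of Cdkn1a and Cdkn1b, read 129, 135 and 163 RPKM in MCP LSC, against 203, 211 and 196 RPKM in Veh LSC (-0.52 ± 0.10, adjusted p = 0.0466). Activators and a repressor of the inhibitors thus fell together, and each kept its direction under both other scalings, where Egr1 and Klf4 passed and Klf6 and Myc did not. Klf6 and Myc also missed the threshold with no filter (adjusted p = 0.0636 and 0.0702), Klf6 with library weights (0.0620) and Myc with a pseudocount of 0.1 (0.0521). Klf6 missed it without MCP LSC 1 or 3 (0.0672 and 0.0678), and Myc without MCP LSC 1 or 2 (0.0688 and 0.0733). The list's median was -0.25, against -0.18 over all tested features. Without Veh LSC 1, 2 or 3, Klf4, Klf6 and Myc missed the threshold (adjusted p from 0.0903 to 0.205), and Egr1 did so without Veh LSC 3 (0.0664); leaving out these libraries took the features called from 325 to 46, 77 and 25.

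Other lists of the pathway held few calls. E2f7, a repressor among the E2F factors, fell, with 6.00, 5.83 and 4.89 RPKM in MCP LSC, against 11.1, 11.4 and 14.8 RPKM in Veh LSC (log2 difference -1.02 ± 0.19, adjusted p = 0.0423), as 1 of 17 RB and E2F genes; its call was lost in 5 of the other fits and without each library in turn. Of 38 tested p53 target genes 0 passed in limma, with 10 at an unadjusted p under 0.05, against 3226 of 14005 tested features. Of the 38, 33 had a difference below 0, against 10057 of 14005 features. Their median was -0.34, against -0.18 over all tested features. Regulators of p53 (23 genes), cyclins and CDKs (15 genes) and p27 and p21 turnover (13 genes) also gave 0 calls, with 9, 5 and 3 at an unadjusted p under 0.05. Markers of other cells moved in the same libraries. Summed mast cell and basophil markers were 165 to 177 RPKM in MCP LSC, against 446 to 479 RPKM in Veh LSC, and 6 of 10 fell. Summed LSK and HSC markers were 315 to 343 RPKM in MCP LSC, against 434 to 470 RPKM in Veh LSC, and 3 of 12 fell. Summed neutrophil markers were 268 to 374 RPKM in MCP LSC, against 203 to 220 RPKM in Veh LSC. Yet of 7 tested neutrophil markers 3 had a difference above 0 and 4 below, with a median of -0.13. Only S100a8 among them passed, and it rose. The part of all these cell markers in the values of Cdkn1b, Klf4 and Egr1 was not tested.

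**Figure D5:**
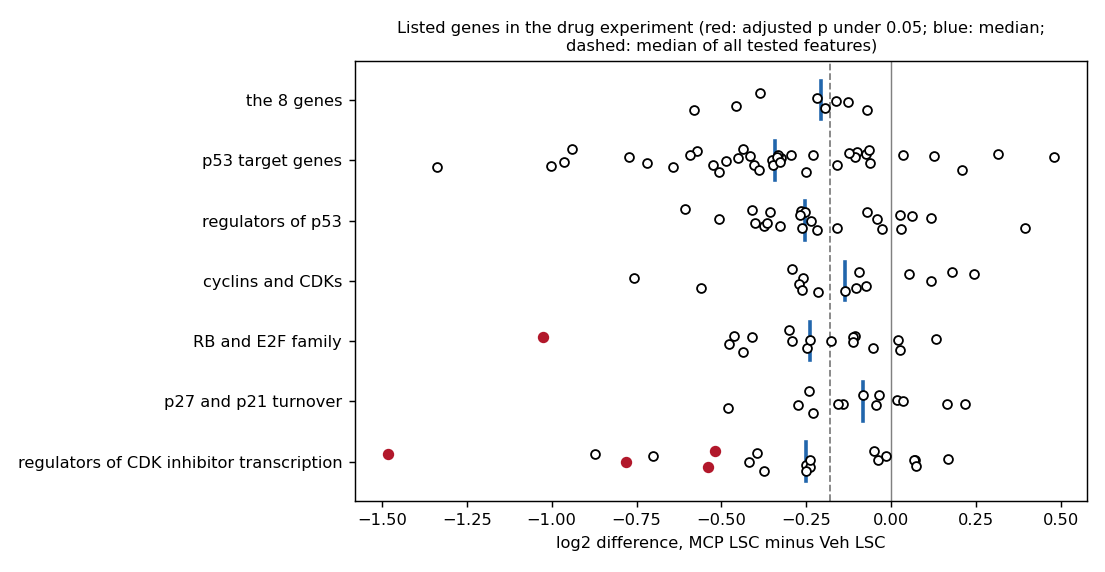
Difference of log2(RPKM + 1), MCP LSC minus Veh LSC (x axis), of each tested gene (points) in the 8 genes and 6 wider lists (rows), with list medians in blue. The median of the 8 genes, -0.21, lies close to the dashed line at -0.18, the median of all tested features, and the 5 red points that passed are E2f7, Klf4, Egr1, Klf6 and Myc.

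Over the 10 libraries of the CD93 experiment, many features followed each of the 8 genes. Among 7731 features that averaged at least 5 RPKM, the closest to Cdkn1a were Fam98c, Irf2bp1 and Imp3 (Pearson's r of 0.998 to 0.999 on log2 values), to Cdkn1b Snora31, Drosha and Mxd3, to Cdkn1c Lipt2, Bloc1s4 and Lysmd2, and to Cdkn2c Egfl7, Angptl4 and Hes6. For Cdkn2d they were Lypla2, Ube2v2 and Tsen15, for Trp53 Tsta3, Ninj1 and Prpf40b, for Mdm2 Crot, Arfgap1 and Pigh, and for Ccng1 Traf5, Zfp202 and Insig1. These libraries share which genes are without signal, and r exceeded 0.95 for 1569 features with Cdkn2d, 1539 with Cdkn2c, 547 with Cdkn1a, 437 with Trp53, 273 with Mdm2, 90 with Ccng1, 78 with Cdkn1b and 33 with Cdkn1c. Among the 8 genes themselves r ran from 0.363 (Cdkn1b with Mdm2) to 1 (Cdkn2c with Cdkn2d), and Trp53 with its targets gave 0.943 for Cdkn1a, 0.840 for Mdm2 and 0.385 for Ccng1.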

How the data were processed

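RNA of sorted mouse bone marrow cells was extracted with the RNeasy Micro kit and amplified with SMART-Seq v4, per the labels' protocols. The 16 libraries form 6 groups taken from the titles; for the drug samples, titles (LSC) and source field (LSK) differ, and groups follow the titles. The values the authors deposited were taken as RPKM, inferred from their range and column totals, since the labels name no unit. The genome build is GRCm38 (mm10), per the submitters' processing notes; the sources used here name no aligner, counter or annotation. Gene positions are from GENCODE M21 and promoters from RefSeq on GRCm38.p6.

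Values were analysed as log2(RPKM + 1) with limma 3.58.1 (R 4.3.3), with 1 mean per group and a mean-variance trend, over features of at least 1 RPKM in at least 2 libraries (13485 and 14005 in the CD93 and drug experiments). Each experiment was fitted on its own, the CD93 one with all 10 libraries together. P-values are two-sided and adjusted by Benjamini-Hochberg over all tested features, with a threshold of 0.05; ± after a log2 difference is its SE. A difference from a gene at the lowest value depends on the added 1, so no fold is given. No counts were used. The depth of the LSK libraries, estimated from the spacing of low values in single-exon genes, was 5420000 to 7740000 reads, with 50.5% to 55.5% of those values within 0.1 of a whole multiple; that of the other libraries is unknown, so no counting interval is given. The model was tested on simulated data drawn from normal distributions without a lowest value. That test therefore does not cover LSC libraries in which many features are tied at the lowest value.

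All 8 genes are named in every comparison; of the other lists, genes that passed are counted and up to 4 with the smallest p named, and the 3 most similar features per gene are given. Members and lists were chosen with earlier results of these data known. Of the listed genes 222 matched by symbol and 7 by synonym in the CD93 experiment, and 227 and 3 in the drug experiment. Alternatives were a pseudocount of 0.1, no filter, a mean of at least 5 RPKM, quantile normalization, scaling by the median ratio, the replicate number as a block, library weights, only the compared groups, and leaving out each library; a block with crossed numbers was added after seeing the data.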

Additional observations from a re-analysis of the deposited data

How the results depend on the processing

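The 2 INK4 genes in the comparisons of LSC with LSK cells kept their direction and their calls under every alternative run. Their LSC values were all tied at the lowest value, so these runs do not measure spread between LSC libraries. In KO LSK against WT LSK the 247 features called became 418 with no filter, 1 with a mean of at least 5 RPKM, 15 under quantile normalization, 163 under median ratio scaling and 0 with the compared groups only (limma, 772 at an unadjusted p under 0.05). Trp53 turned to -0.18 under quantile normalization and -0.39 under median ratio scaling, where Cdkn2c turned to -0.16 and Cdkn2d to -0.25. In WT LSC against WT LSK the 5905 features became 3021 with a mean of at least 5 RPKM and 2919 under quantile normalization. The 6 genes called became 3 under quantile normalization and 3 with the compared groups only; quantile normalization turned Cdkn1b to 1.35, Cdkn1c to 0.23, Ccng1 to 0.27, E2f5 to 0.11 and Foxo3 to 0.18. In KO LSC against KO LSK the 8391 features became 5396 with a mean of at least 5 RPKM and 3768 under quantile normalization, which left 4 of the 7 genes called and turned Ddit4 to 0.10, Aen to 0.040, Plk2 to 0.41, Ppm1d to 0.34, E2f5 to 0.51, Cul4a to 0.039, Foxo3 to 0.32 and Bmi1 to 0.67. For the difference between genotype effects the 820 features became 150 under quantile normalization, with Cdkn2c at 0.10 and Cdkn2d at 0.039, and 394 under median ratio scaling, with Cdkn2c at 0.16 and Cdkn2d at 0.25; Mdm2 turned to -0.78 with a pseudocount of 0.1. In MCP LSC against Veh LSC quantile normalization turned Cdkn1c to 0.060, Cdkn2c to 0.061 and Cdkn2d to 0.18, and median ratio scaling turned Cdkn2d to 0.075, Trp53 to 0.050 and Mdm2 to 0.0098. The share of all calls that were higher was 22.5% as deposited, 41.9% under quantile normalization and 66.1% under median ratio scaling. The cause was not tested. A mean of at least 5 RPKM left 8808 of 13485 features; the compared groups only left 13208 features in KO LSK against WT LSK and dropped the 6 LSC libraries from the estimate of the spread.

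Leaving out 1 library at a time gave 964 to 2066 features and 0 to 1 of the 8 genes in KO LSC against WT LSC, 100 to 1084 and 0 to 1 in KO LSK against WT LSK, 4670 to 6458 and 3 to 7 in WT LSC against WT LSK, 6303 to 8706 and 5 to 8 in KO LSC against KO LSK, 491 to 1558 and 0 to 1 for the difference between genotype effects, and 25 to 406 and 0 to 0 in MCP LSC against Veh LSC. Log2 differences that changed sign ran from -0.024 to 0.086 for Trp53 in KO LSK against WT LSK and from -1.83 to 1.06 for Cdkn1b in WT LSC against WT LSK. For the difference between genotype effects they ran from -0.49 to 1.24 for Mdm2 and from -2.36 to 1.13 for Ccng1. In MCP LSC against Veh LSC they ran from -0.29 to 0.030 for Trp53, -0.83 to 0.18 for Cdkn2c, -0.23 to 0.20 for Cdkn2d and -0.28 to 0.040 for Mdm2.

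Libraries with the same number did not deviate together: correlations ran from -0.282 to 0.045 over 13 pairs in the CD93 experiment and from -0.008 to 0.014 over 3 pairs in the drug experiment. Over 24 CD93 pairs with different numbers they ran from -0.098 to 0.282. Deviations in a group of 2 libraries mirror each other, so KO LSK with WT LSK gave -0.282 for same and 0.282 for different numbers. With the replicate number as a block, limma called 5 features in KO LSK against WT LSK (880 at an unadjusted p under 0.05), 0 for the difference between genotype effects (1836 at an unadjusted p under 0.05) and 39 in MCP LSC against Veh LSC, with 0 of the 8 genes in each; Klf4, Klf6 and Myc then missed the threshold (adjusted p = 0.0689, 0.102 and 0.112). A block with crossed KO LSK numbers, chosen after seeing the data, called 5 in KO LSK against WT LSK. Depth is unknown for the LSC libraries, so a gene at the lowest value there may lie under the detection limit.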
